A study of Mus musculus with 30 samples.

Results

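The BAF complex is the mammalian form of the SWI/SNF chromatin remodeller. It uses ATP to slide or evict nucleosomes and so opens promoters and enhancers, and it is assembled around an ATPase from subunits that often come as interchangeable paralogs. When neural progenitors leave the cell cycle, several subunits are exchanged for neuronal versions, and human mutations of several subunit genes cause intellectual disability syndromes, Coffin-Siris syndrome among them. The homeodomain protein ADNP, whose human gene is linked to a syndromic autism, has been reported to bind BAF subunits. Transcripts of 10 BAF subunits, taken by name, were examined in 30 libraries of mouse prefrontal cortex: the ATPases Smarca4 and Smarca2, the AT-rich interaction domain subunits Arid1a and Arid1b, the scaffold subunits Smarcc1 and Smarcc2, the core subunits Smarcb1, Smarce1 and Smarcd1, and the neuronal actin-related subunit Actl6b. All 10 were among the 18240 genes of the deposited table, and all 10 passed the filter on low values (mean count of 10 or more), as did 16824 genes in all.

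The tissue was collected at postnatal day 40 from C57BL/6J mice and sequenced as stranded poly(A) RNA. The groups were Adnp heterozygous (HT) mice given fluoxetine, a selective serotonin reuptake inhibitor (4 female and 4 male libraries), HT mice given lithium, a mood stabiliser (3 female, 4 male), HT mice given vehicle (4 female, 3 male) and wild-type (WT) mice given vehicle (4 female, 4 male). No WT drug group was among the samples analysed here, so the effect of a drug alone was compared only between HT groups. The HT drug groups were also compared with WT vehicle, where genotype and drug change together. All HT groups shared the same heterozygous state, and the sources used here give neither the altered part of the Adnp allele nor the doses and durations of the drugs. The labels number the libraries of a group without saying that each came from a separate mouse, so p-values measure the spread between libraries, which may be technical.

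Libraries held 23771758 to 34307061 reads, and values are normalized read counts, that is, reads divided by 1 size factor per library. The summed count of Adnp and Gm20716, a gene model that shares its exons, was 3404 to 3887 in the 22 HT libraries and 4226 to 4433 in the 8 WT libraries, without overlap. The row named Adnp alone was 1886 to 2491 in HT libraries and 1703 to 2228 in WT libraries, and Gm20716 alone was 1049 to 1850 in HT libraries and 2167 to 2622 in WT libraries. The 6 excitatory neuron markers, cortical ones included, summed to 115851 to 179509 over all libraries. By olfactory bulb and neuroblast markers, the libraries HT lithium male 4 and HT vehicle female 1 stood apart. Their summed levels of 6 such markers were 12226 and 10794, against a median of 2287 over all libraries. Values without them are given for part of the results described, so a result without such a value may also move. The remaining libraries were not alike in tissue makeup either. Summed striatal medium spiny neuron markers ran from 2691 in HT lithium male 4 to 23255 in HT fluoxetine female 4.

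None of the 10 subunit transcripts was called by limma, at an adjusted p under 0.05, in any comparison. DESeq2 called 1, Arid1b, lower in HT lithium than in WT vehicle libraries (adjusted p = 0.0467), where it called 489 of 16824 genes. The ranges of all groups overlapped for every subunit, and between the vehicle genotypes the intervals excluded changes beyond -9.32% and 9.86%. The smallest adjusted p of any subunit was for Arid1b in HT lithium against WT vehicle libraries, where the mean was 2487 ± 189 (SD, n = 7) normalized counts in HT lithium libraries and 2730 ± 143 (SD, n = 8) in WT vehicle libraries (limma, adjusted p = 0.0815). Smarcd1 in HT fluoxetine against WT vehicle libraries came next (limma, adjusted p = 0.221). With the pair of libraries that stood apart left out, limma called 0 of 10 subunits in any comparison.

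**Figure D1:**
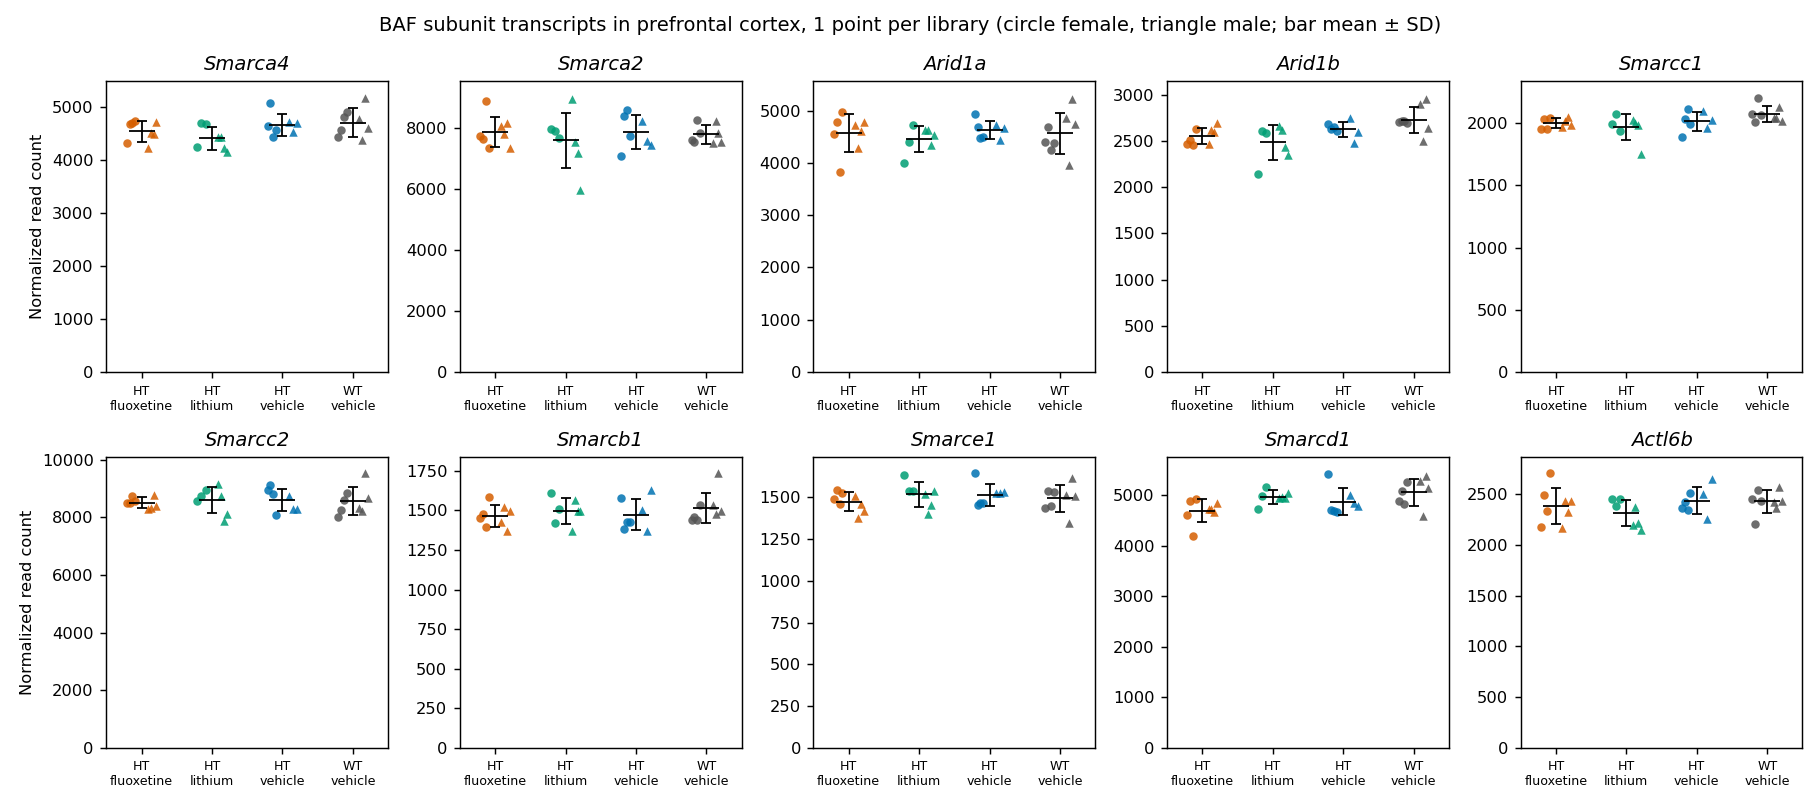
Normalized read count (vertical axes, from 0) of each of the 10 BAF subunits by group. Each point is 1 library, circles are female and triangles male, and bars give the mean ± SD of the group. The groups overlap for every subunit, and the single low HT lithium point for Smarca2 is HT lithium male 4 at 5967.

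The first question was whether the subunits differ by Adnp genotype without a drug. In HT vehicle against WT vehicle libraries, 0 of the 10 subunits were called by limma at an adjusted p under 0.05, where 0.731% of all genes tested were called (123 of 16824). The log2 fold changes ran from -0.06 for Arid1b to 0.03 for Arid1a, with 5 above 0 and 5 below, and adjusted p-values were 0.947 to 0.993 (limma). Their median was -0.0042, beside -0.0010 over all genes tested. Across the 10 subunits the 95% confidence intervals ran from -9.32%, for Arid1b, to 9.86%, for Arid1a. At an unadjusted p under 0.05, 0 subunits and 1111 genes differed. Without the 2 libraries that stood apart, 1 subunit, Smarcd1, and 1083 genes did (limma, unadjusted p = 0.0416 for Smarcd1). No subunit had libraries that did not overlap between HT vehicle and WT vehicle, which was the case for 0.452% of all genes.

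The second question was whether a drug moved the subunits in HT mice. In HT fluoxetine against HT vehicle libraries, 0 of 10 were called by limma, beside 0.0357% of all genes. The log2 fold changes ran from -0.05 for Smarcd1 to 0.01 for Smarca2, with 9 of 10 below 0 and a median of -0.03, beside -0.0016 over all genes, and the intervals spanned -8.95% to 9.25%. In HT lithium against HT vehicle libraries, 0 of 10 were called, beside 0.0892% of all genes. Differences ran from -0.08 for Arid1b to 0.03 for Smarcd1, 6 of them below 0, with a median of -0.04, beside -0.0039 over all genes. The lithium intervals were somewhat wider, from -11.4% for Smarca2 to 8.33% for Smarcb1. At an unadjusted p under 0.05 there were 0 subunits for either drug, beside 442 genes for fluoxetine and 962 for lithium. No subunit had libraries that did not overlap, beside 0.0535% of all genes for fluoxetine and 0.0773% for lithium. These 2 comparisons share the HT vehicle libraries.

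Set against WT vehicle, HT fluoxetine libraries gave 0 called subunits of 10, beside 1.49% of all genes, and HT lithium libraries gave 0 of 10, beside 1.97%. The comparisons share the WT libraries with each other and with the genotype comparison. In both, genotype and drug change together, and their parts cannot be told apart. For HT fluoxetine, 8 of 10 differences were below 0 and the median log2 fold change was -0.04, beside -0.0008 over all genes. For HT lithium, 8 of 10 were below 0 and the median was also -0.04, beside -0.0015 over all genes. At an unadjusted p under 0.05, Smarcd1 and Arid1b were lower in HT fluoxetine libraries, and Arid1b, Smarca4 and Smarcc1 were lower in HT lithium libraries. Such p-values were common in both comparisons, with 2041 genes for HT fluoxetine and 2977 for HT lithium. The 3 subunits of HT lithium became 1, Arid1b, when HT lithium male 4 was left out, alone or with HT vehicle female 1. Omitting any of HT lithium female 1, WT vehicle male 3 or WT vehicle female 3 also left only Arid1b. No subunit had libraries that did not overlap with WT, beside 0.565% of all genes for HT fluoxetine and 0.725% for HT lithium, and likewise none in all 22 HT against 8 WT libraries, beside 0.184% of all genes.

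**Figure D2:**
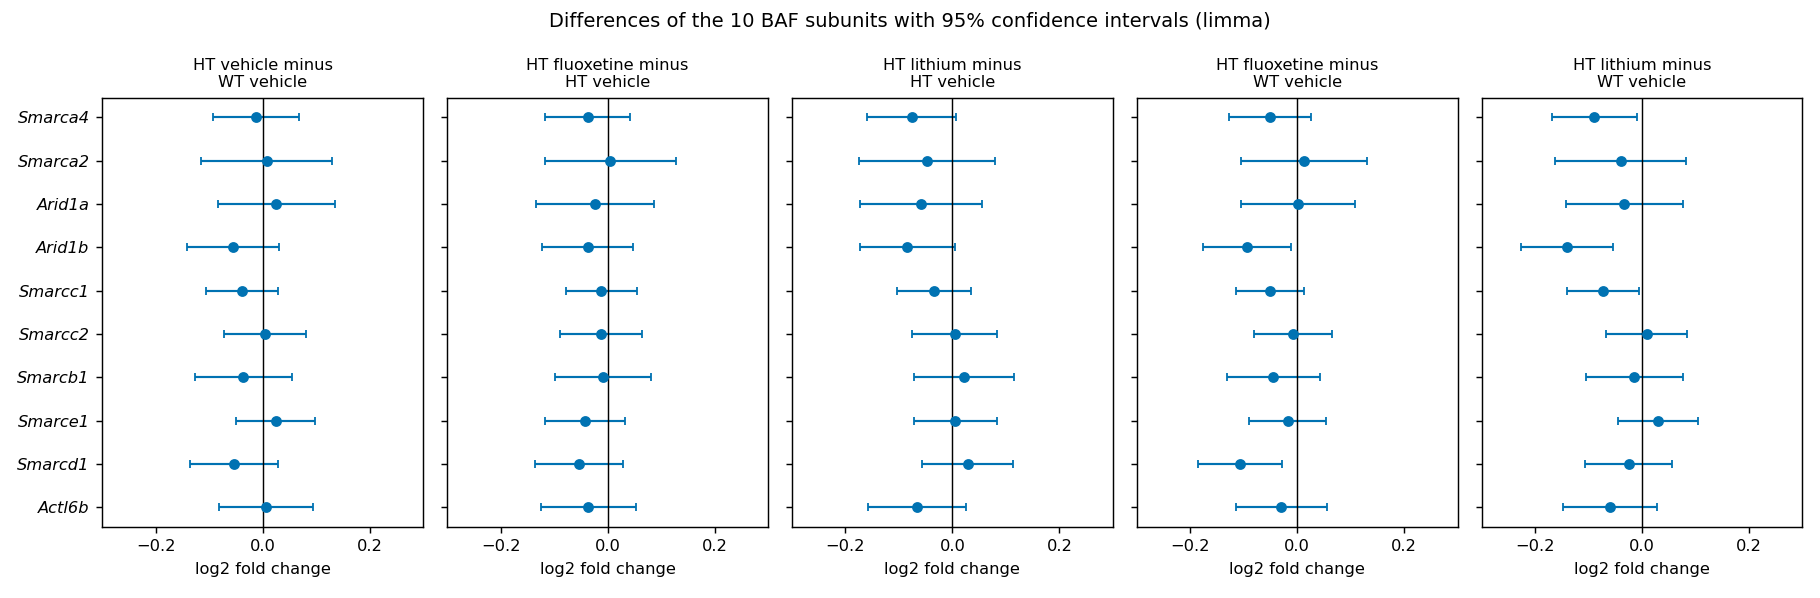
Log2 fold change (horizontal axes) of each BAF subunit in 5 comparisons, as points with 95% confidence intervals from limma. The intervals of all 10 subunits hold 0 in the 3 left panels, and the intervals that lie wholly below 0 are those of Arid1b and Smarcd1 for HT fluoxetine against WT vehicle and of Arid1b, Smarca4 and Smarcc1 for HT lithium against WT vehicle.

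Smarca4 and Smarca2 encode the alternative ATPases of the complex, of which each complex holds 1. Smarca4 (ENSMUSG00000032187) lies on the plus strand at chr9:21616169-21704230 in build GRCm38 (GENCODE M21, which gives the coordinates of all genes named here). It ranged from 4225 to 4744 (median 4596) in HT fluoxetine libraries, 4148 to 4703 (median 4443) in HT lithium libraries, 4445 to 5082 (median 4653) in HT vehicle libraries and 4378 to 5184 (median 4700) in WT vehicle libraries. The ranges overlapped throughout, with the lowest library in the HT lithium group. The log2 fold change was -0.01 ± 0.04 (SE) for HT vehicle against WT vehicle and -0.09 ± 0.04 for HT lithium against WT vehicle (limma, adjusted p = 0.231). Without the libraries that stood apart the lithium value was -0.08 (limma, adjusted p = 0.408, unadjusted p = 0.0612).

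Smarca2 (ENSMUSG00000024921, plus strand, chr19:26605050-26778322) varied more between libraries of a group than any other of the 10. Its counts were 7354 to 8880 (median 7780) in HT fluoxetine libraries, 5967 to 8947 (median 7683) in HT lithium libraries, 7080 to 8607 (median 7738) in HT vehicle libraries and 7508 to 8286 (median 7727) in WT vehicle libraries. The HT lithium group held both the lowest and the highest of all 30 libraries, HT lithium male 4 and HT lithium male 1. The lowest library of the HT vehicle group was HT vehicle female 1. These are the libraries with the highest olfactory bulb and neuroblast marker sums, and the part of that tissue in the values was not tested. In bulk tissue, fewer cells of a type and less RNA per cell cannot be told apart. The log2 fold change for HT vehicle against WT vehicle was 0.01 ± 0.06 (SE), with a 95% interval of -7.66% to 9.42%, and 0.03 without those libraries. The HT lithium difference from WT vehicle was -0.04 ± 0.06 (SE), and 0.01 without them.

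Arid1a and Arid1b are the mutually exclusive large subunits that define the canonical form of the complex, and ARID1B is the gene most often mutated in Coffin-Siris syndrome. Arid1a (ENSMUSG00000007880, minus strand, chr4:133679008-133756769) had 3819 to 4969 (median 4672) normalized counts in HT fluoxetine libraries, 3990 to 4721 (median 4531) in HT lithium libraries, 4447 to 4938 (median 4667) in HT vehicle libraries and 3967 to 5231 (median 4545) in WT vehicle libraries. The WT range was the widest of the 4 and contained both the HT lithium and the HT vehicle range. The log2 fold change was 0.03 ± 0.05 (SE) for HT vehicle against WT vehicle, -0.02 ± 0.05 for HT fluoxetine and -0.06 ± 0.06 for HT lithium against HT vehicle.

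Arid1b (ENSMUSG00000069729, plus strand, chr17:4994332-5347656) was the subunit with the lowest adjusted p. The HT lithium libraries had 2138, 2612 and 2583 normalized counts in females and 2662, 2621, 2440 and 2352 in males, against 2704, 2715, 2715 and 2700 in WT vehicle females and 2900, 2506, 2959 and 2638 in WT vehicle males. All 3 HT lithium females were below all 4 WT females, whereas in males the groups overlapped. The share of all genes that separate so within 1 sex was not counted. No difference between the sexes was tested for HT lithium against WT vehicle. HT fluoxetine libraries ranged from 2463 to 2690 (median 2558), and HT vehicle libraries from 2476 to 2748 (median 2631). The HT lithium difference from WT was -0.14 ± 0.04 (SE) on the log2 scale, or -9.24% with a 95% interval of -14.5% to -3.69%. The adjusted p was 0.0815 with limma, 0.0916 with edgeR and 0.0467 with DESeq2, so that DESeq2 alone of these tools called it. Without the libraries that stood apart it was -0.12 (limma, adjusted p = 0.186). Leaving out single libraries, the log2 fold change was closest to 0, at -0.09, without HT lithium female 1, and limma called Arid1b without HT lithium female 2 (-0.17, adjusted p = 0.048) and without WT vehicle male 2 (-0.16, adjusted p = 0.04). Over all 16824 genes, those fits called 293 and 265. Against HT vehicle, the group of the same genotype, the HT lithium difference was -0.08 ± 0.04 (SE; limma, adjusted p = 0.876).

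The paralogs Smarcc1 and Smarcc2 form the dimeric scaffold on which the complex is built. Smarcc1 (ENSMUSG00000032481, plus strand, chr9:110117708-110240178) had 1952 to 2047 (median 2000.2) normalized counts in HT fluoxetine libraries, 1749 to 2073 (median 1992) in HT lithium libraries, 1891 to 2111 (median 2022) in HT vehicle libraries and 2008 to 2203 (median 2051) in WT vehicle libraries. The lowest HT lithium library was HT lithium male 4, and the lowest HT vehicle library was HT vehicle female 1, the libraries that stood apart. HT lithium libraries differed from WT vehicle libraries by -0.07 ± 0.03 (SE) on the log2 scale (limma, adjusted p = 0.239), and it was -0.05 without those libraries (unadjusted p = 0.0934 by limma). It shares 123 exonic bases, 1.57% of its own, with Dhx30 on the opposite strand, and the sources used here do not say how strand was used in counting.

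Smarcc2 (ENSMUSG00000025369, plus strand, chr10:128459248-128490482) had the highest counts of the 10. They were 8281 to 8778 (median 8506) in HT fluoxetine libraries, 7867 to 9149 (median 8740) in HT lithium libraries, 8076 to 9134 (median 8730) in HT vehicle libraries and 8026 to 9545 (median 8475) in WT vehicle libraries. The HT fluoxetine range lay within each of the other 3. The log2 fold changes of Smarcc2 in the 6 comparisons between conditions were between -0.02 and 0.01, with an interval of -4.88% to 5.75% for HT vehicle against WT vehicle.

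Smarcb1, Smarce1 and Smarcd1 belong to the core module. Smarcb1, which contacts the nucleosome surface, lies on the minus strand (ENSMUSG00000000902, chr10:75896769-75921617). It had 1372 to 1584 (median 1466) normalized counts in HT fluoxetine libraries, 1370 to 1608 (median 1499) in HT lithium libraries, 1368 to 1626 (median 1428) in HT vehicle libraries and 1438 to 1733 (median 1487) in WT vehicle libraries. The highest value was 1 library, WT vehicle male 3, and the remaining WT libraries lay within the HT ranges. The log2 fold change was -0.04 ± 0.04 (SE) for HT vehicle against WT vehicle.

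Smarce1 (ENSMUSG00000037935, minus strand, chr11:99209047-99231017) encodes a subunit with an HMG DNA-binding domain. Its counts were 1379 to 1544 (median 1478) in HT fluoxetine libraries, 1399 to 1633 (median 1538) in HT lithium libraries, 1454 to 1646 (median 1524) in HT vehicle libraries and 1347 to 1619 (median 1514) in WT vehicle libraries. The highest of the 30 was HT vehicle female 1 and the lowest WT vehicle male 2. The log2 fold change was 0.02 ± 0.04 (SE) for HT vehicle against WT vehicle (0.0026 without the libraries that stood apart) and 0.03 ± 0.04 for HT lithium against WT vehicle, the highest of the 10 there.

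Smarcd1 (ENSMUSG00000023018, plus strand, chr15:99702129-99713991) encodes a subunit that links the complex to transcription factors. HT fluoxetine libraries had 4612, 4881, 4206 and 4938 normalized counts in females and 4723, 4736, 4663 and 4854 in males, against 4894, 5090, 4837 and 5269 in WT vehicle females and 5291, 4593, 5392 and 5147 in WT vehicle males. Apart from WT vehicle male 2, the WT libraries had 4837 or more, a level that 3 of the 8 HT fluoxetine libraries reached. HT lithium libraries ranged from 4723 to 5174 (median 4978) and HT vehicle libraries from 4671 to 5431 (median 4793), whose highest value was HT vehicle female 1. The HT fluoxetine difference from WT was -0.11 ± 0.04 (SE) on the log2 scale, or -7.14% with a 95% interval of -12.1% to -1.93% (limma, adjusted p = 0.221). With the summed striatal and olfactory bulb marker levels as covariates it was -0.13 (limma, adjusted p = 0.00277), the 1 alternative in which a subunit was called in that comparison. That fit called 553 of 16824 genes. HT vehicle against WT vehicle gave -0.05 ± 0.04 (SE), and -0.08 without the libraries that stood apart (limma, adjusted p = 0.731, unadjusted p = 0.0416). HT fluoxetine against HT vehicle gave -0.05 ± 0.04 (SE), and -0.03 without them, and HT fluoxetine against HT lithium gave -0.08 ± 0.04 (SE; limma, adjusted p = 0.73). Smarcd1 shares 224 exonic bases, 5.56% of its own, with Gm34939 on the opposite strand.

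Actl6b (ENSMUSG00000029712, plus strand, chr5:137553517-137569582) encodes the actin-related subunit that replaces Actl6a in neurons as they exit the cell cycle, and it is used to mark the neuronal form of the complex. It had 2166 to 2708 (median 2385) normalized counts in HT fluoxetine libraries, 2148 to 2456 (median 2373) in HT lithium libraries, 2258 to 2656 (median 2422) in HT vehicle libraries and 2210 to 2573 (median 2434) in WT vehicle libraries. The HT lithium males lay low within these ranges: their mean was 2235 ± 97 (SD, n = 4), against 2472 ± 201 (SD, n = 3) in HT vehicle males, whereas HT lithium females averaged 2432 ± 39 (SD, n = 3), against 2414 ± 77 (SD, n = 4) in HT vehicle females. The lithium difference in males was -0.14 ± 0.06 (SE) on the log2 scale (limma, adjusted p = 0.34), and 0 of 10 subunits were called there, beside 0.0773% of all genes. The summed levels of 6 striatal medium spiny neuron markers, with which Actl6b correlated over the libraries, were 2691 to 3337 in HT lithium males, against 3212 to 14750.3 in HT vehicle males. Apart from a fit with marker sums as covariates, given next, their part in this difference was not tested. At an unadjusted p of 0.0319 (limma) Actl6b was the 1 subunit under 0.05 there, beside 13.8% of all genes (2324 of 16824). The difference was -0.05 (limma, unadjusted p = 0.399) with the striatal and olfactory bulb marker sums as covariates. With 1 of the 7 libraries left out at a time, the unadjusted p was under 0.05 for the omission of HT lithium male 2 or HT vehicle male 2 and above it for the other 5. Without HT lithium male 4 it was -0.12 (limma, unadjusted p = 0.0777). It was -0.09 (unadjusted p = 0.209) without HT vehicle male 3, and -0.21 (unadjusted p = 0.00538) without HT vehicle male 2. The difference between the sexes in the lithium effect was 0.15 ± 0.09 (SE, female minus male; limma, adjusted p = 0.524).

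No subunit passed the test between the sexes. In female against male libraries over all conditions, 0 of 10 were called by limma, beside 0.214% of all genes, with log2 fold changes from -0.04 for Arid1a to 0.04 for Smarca2 and intervals within -7.75% and 8.93%. For the difference between the sexes in the genotype, fluoxetine or lithium effect, 0 of 10 were called, beside 0% of all genes in each of the 3. Within 1 sex, 0 of 10 were called for genotype in females (0.256% of all genes) and in males (0.226%), for fluoxetine in females (0%) and in males (0.0178%), and for lithium in females (0%). The intervals of the differences between the sexes were wide: the genotype effect on Arid1a could differ between females and males by between -8.5% and 24.1%. In HT fluoxetine against HT lithium libraries, 0 of 10 were called, beside 0% of all genes, with differences from -0.08 for Smarcd1 to 0.05 for Smarca2.

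The subunits were unequal in level, compared here per kilobase of the longest coding transcript. Averaged over the 30 libraries, Smarcc2 was highest at 1878 ± 82 normalized counts per kb (SD). Actl6b at 1504 ± 88, Smarcd1 at 1483 ± 79 and Smarca2 at 1316 ± 97 followed. Next were Smarcb1 at 896 ± 51, Smarca4 at 720 ± 38, Arid1a at 557 ± 37 and Smarce1 at 514 ± 23, and the lowest were Smarcc1 at 349 ± 14 and Arid1b at 230 ± 14. All 10 were above the median of all genes with a length, 163 per kb. Neighbours in this order overlapped in range for Actl6b and Smarcd1, Smarcd1 and Smarca2, Smarca2 and Smarcb1, and Arid1a and Smarce1, and the others did not. The order depends on the length used: by all exonic bases of the gene, Actl6b moved to rank 4, Smarca4 to rank 3, Smarca2 to rank 5 and Smarcb1 to rank 10. Within groups the subunits were steady, with a median SD of 0.08 on the log2 scale, beside 0.13 over all genes; the SD was below the median of all genes for all 10. Genes with higher counts have less counting error, and these subunits are above the median in level.

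**Figure D3:**
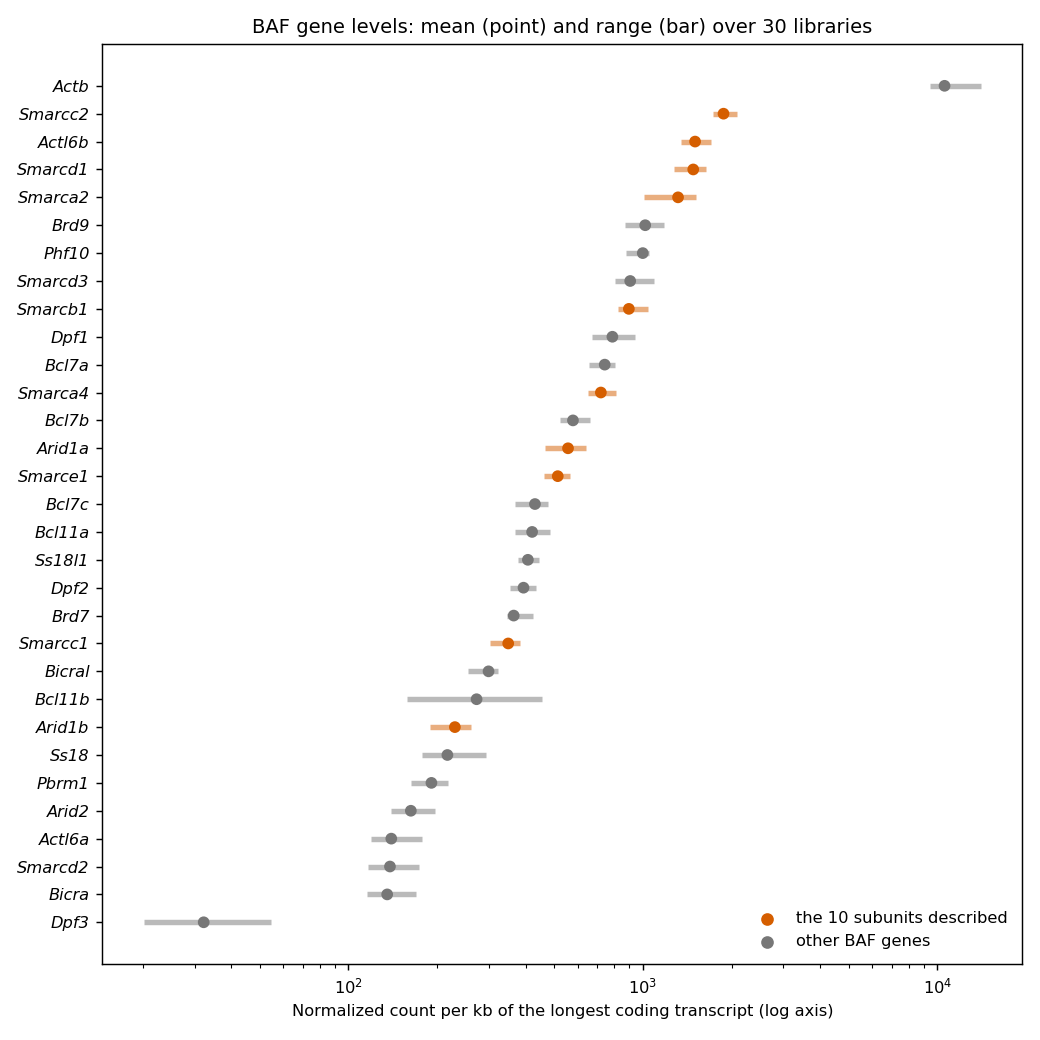
Level of each BAF gene as normalized count per kilobase of the longest coding transcript (horizontal log axis), with the mean over 30 libraries as a point and the range as a bar. The 10 subunits described, in orange, run from Arid1b at 230 to Smarcc2 at 1878, and the range of each is narrow beside the distance between Smarcc2 and Arid1b.

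The ratios of interchangeable subunits overlapped in range between the groups. Per kb, Smarca4 stood at 0.548 of Smarca2 over all libraries, and the log2 ratio averaged -0.90 ± 0.12 in HT fluoxetine (SD, n = 8), -0.88 ± 0.15 in HT lithium (n = 7), -0.86 ± 0.11 in HT vehicle (n = 7) and -0.84 ± 0.10 in WT vehicle libraries (n = 8). Arid1a stood at 2.42 times Arid1b, with log2 ratios of 1.30 ± 0.11 in HT fluoxetine, 1.31 ± 0.06 in HT lithium, 1.29 ± 0.04 in HT vehicle and 1.21 ± 0.08 in WT vehicle libraries. The WT mean was the lowest of the 4, but the WT range of 1.11 to 1.31 overlapped that of each HT group. Smarcc1 stood at 0.186 of Smarcc2, with log2 ratios of -2.43 ± 0.04 in HT fluoxetine, -2.47 ± 0.08 in HT lithium, -2.44 ± 0.08 in HT vehicle and -2.39 ± 0.07 in WT vehicle libraries. These ranges overlapped too, and no test was made of any ratio. The size of a ratio depends on the length used, and for the ATPases so does its direction: by all exonic bases Smarca4 stood at 1.30 times Smarca2, with 709 and 546 normalized counts per kb. By exonic bases the other pairs kept their direction, with Arid1a at 1.92 times Arid1b, Smarcc1 at 0.167 of Smarcc2 and Actl6b at 7.76 times Actl6a.

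Actl6b stood at 10.8 times Actl6a, the form of dividing progenitors. The log2 ratio averaged 3.46 ± 0.09 in HT fluoxetine, 3.35 ± 0.22 in HT lithium, 3.47 ± 0.09 in HT vehicle and 3.44 ± 0.20 in WT vehicle libraries. The lowest of the 30 libraries, at 2.93, was HT lithium male 4. Its sum of the markers listed for dividing progenitors (Mki67, Top2a, Sox11 and Dcx) was 5802, beside a median of 2518 over all libraries. Mki67 was at most 125 and Top2a at most 97 in any library. That sum is therefore mostly Dcx and Sox11 and does not measure dividing cells. The HT lithium mean was 3.42 ± 0.13 (SD, n = 6) without that library. The part of the cells that hold these marker transcripts in the ratio was not tested.

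**Figure D4:**
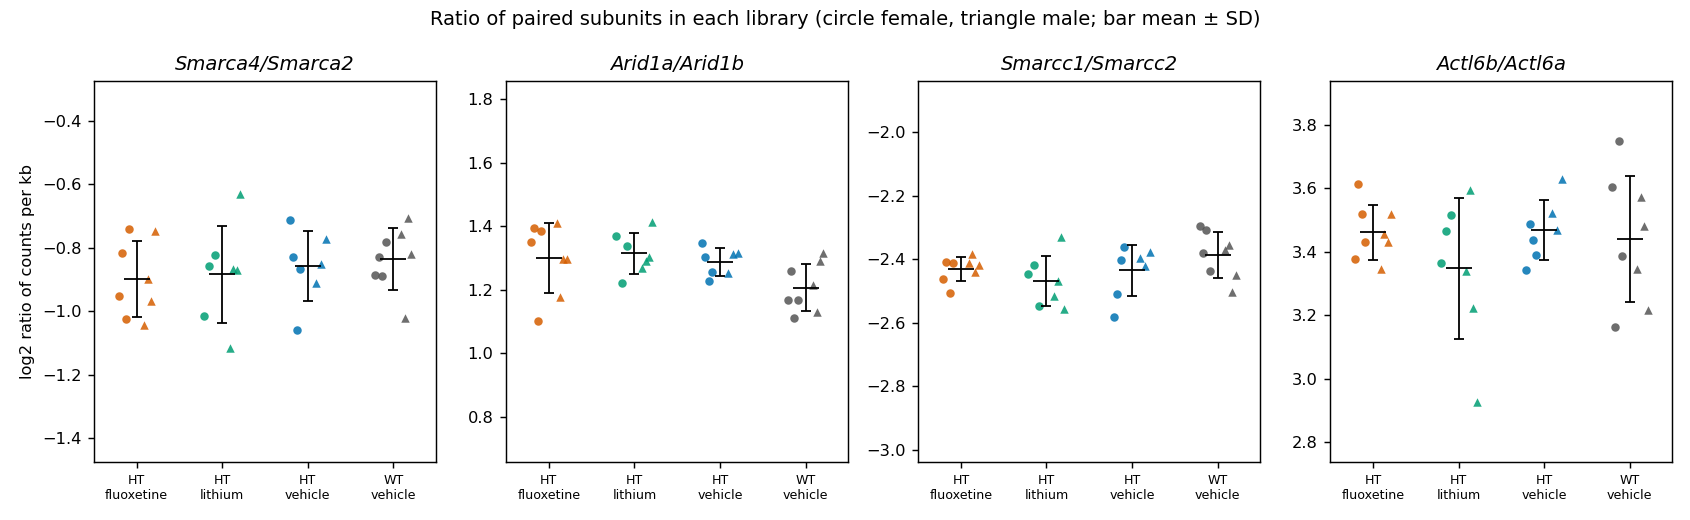
Log2 ratio of counts per kb (vertical axes, the same span of 1.2 in each panel) for 4 pairs of interchangeable subunits, 1 point per library, circles female and triangles male, with mean ± SD per group. The groups overlap in every panel, and the lowest Actl6b/Actl6a point is HT lithium male 4 at 2.93.

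The promoters of this pair are shown because Actl6b and Actl6a are the neuronal and the progenitor form of the same position in the complex and had the largest difference in level among the 4 pairs. Windows of 300 bases, from 250 before to 50 after the RefSeq transcript start in build GRCm38.p6, were read 5′ to 3′ on the gene's strand. Capitals mark the GC box letters GGGCGG, searched on both strands (CCGCCC on the other strand), the core of the binding motif of Sp transcription factors.
Actl6b (chr5:137553296-137553595, plus strand): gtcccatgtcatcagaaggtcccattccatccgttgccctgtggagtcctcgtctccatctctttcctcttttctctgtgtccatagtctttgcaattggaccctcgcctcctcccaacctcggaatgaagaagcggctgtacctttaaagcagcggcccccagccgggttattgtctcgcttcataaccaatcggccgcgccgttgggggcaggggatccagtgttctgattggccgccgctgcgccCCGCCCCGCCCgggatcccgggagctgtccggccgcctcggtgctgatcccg
Actl6a (chr3:32708296-32708595, plus strand): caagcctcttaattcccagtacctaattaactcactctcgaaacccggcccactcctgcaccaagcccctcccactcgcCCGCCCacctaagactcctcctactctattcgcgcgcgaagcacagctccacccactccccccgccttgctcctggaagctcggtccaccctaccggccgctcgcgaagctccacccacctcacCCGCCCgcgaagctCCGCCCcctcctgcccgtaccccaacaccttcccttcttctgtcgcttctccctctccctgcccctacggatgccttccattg
The Actl6b window held 2 overlapping copies of those letters and the Actl6a window 3, and the counts of CpG dinucleotides were 23 and 21. RefSeq windows were matched for 9 of the 10 subunits, Arid1a with 2 windows. All 10 of those windows held the GC box letters, as did 35.7% of all 32851 windows of the same length. Of these windows 3 start well inside the GENCODE gene, and they are counted here as RefSeq places them: the start lies 14316 bases downstream of the GENCODE start for Smarcc1, 2784 for the second window of Arid1a and 742 for Arid1b. The subunit windows held 22 to 48 CpG dinucleotides with a median of 33, beside a median of 7 over all windows. The CRE letters TGACGTCA were in 0 of the 10 and in 1.79% of all windows, and the TATA box letters TATAAA in 0 of the 10 and in 13.6% of all windows. A match is a description of these letters and shows no binding.

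Within groups, many pairs of subunits moved together from library to library. After each group mean was subtracted from log2(count + 1), 36 of the 45 subunit pairs correlated positively over the 30 libraries, with a median Pearson r of 0.35 (0.34 without the pair of libraries that stood apart), 12 above 0.5 and 1 below -0.5. The points of each pair share a library, its depth and its tissue makeup, so r is a description. The share of positive pairs and the median r among all genes were not computed, so these values are not set apart from those of other genes. The highest was Arid1a with Smarcd1 (r = 0.84, Spearman's rho = 0.79), followed by Smarca4 with Arid1b (r = 0.72) and Smarca4 with Smarcc2 (r = 0.67). Smarca2 with Smarcc1 also had r = 0.67, and 0.44 without those libraries. Smarca2 ran against Smarcd1 (r = -0.52), Smarcb1 (r = -0.44), Arid1a (r = -0.36) and Smarce1 (r = -0.31, and -0.11 without those libraries). The promoter windows of Arid1a and Smarcd1, the pair with the highest r, are shown in the same way, with GC box letters in capitals; the Arid1a window is that at the annotated start of the gene.
Arid1a (chr4:133756720-133757019, minus strand): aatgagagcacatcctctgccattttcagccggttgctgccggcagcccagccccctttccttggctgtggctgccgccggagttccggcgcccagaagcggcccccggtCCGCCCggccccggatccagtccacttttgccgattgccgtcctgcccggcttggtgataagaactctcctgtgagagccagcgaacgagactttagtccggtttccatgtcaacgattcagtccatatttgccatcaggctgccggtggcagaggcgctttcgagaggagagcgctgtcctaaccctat
Smarcd1 (chr15:99702037-99702336, plus strand): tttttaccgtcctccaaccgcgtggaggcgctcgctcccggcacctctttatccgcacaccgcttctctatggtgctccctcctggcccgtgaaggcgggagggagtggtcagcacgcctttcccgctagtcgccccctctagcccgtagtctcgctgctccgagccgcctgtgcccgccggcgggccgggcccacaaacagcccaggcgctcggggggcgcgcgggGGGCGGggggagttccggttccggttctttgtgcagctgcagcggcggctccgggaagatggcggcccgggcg
Each window held 1 copy of the GC box letters, and the counts of CpG dinucleotides were 22 for Arid1a and 35 for Smarcd1.

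The summed levels of cell type markers moved with some subunits. Smarca2 correlated with the excitatory neuron sum at r = 0.87 (0.80 without the 2 libraries that stood apart) and with the inhibitory neuron sum at r = -0.83 (n = 30). Smarcd1 and Arid1a ran the other way. Smarcd1 correlated with the inhibitory neuron sum at r = 0.76, with oligodendrocyte precursors at r = 0.75 and with excitatory neurons at r = -0.61, and Arid1a with oligodendrocyte precursors at r = 0.72 and inhibitory neurons at r = 0.67. Actl6b followed the striatal medium spiny neuron (r = 0.71) and oligodendrocyte sums (r = 0.71) and ran against astrocytes (r = -0.64). Smarcc1 ran against the meningeal fibroblast (r = -0.68) and the olfactory bulb and neuroblast sums (r = -0.67). The excitatory sum had a median of 156425 in HT fluoxetine, 149659 in HT lithium, 154567 in HT vehicle and 161055 in WT vehicle libraries, with overlapping ranges, and its part in the subunit differences was not tested.

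**Figure D5:**
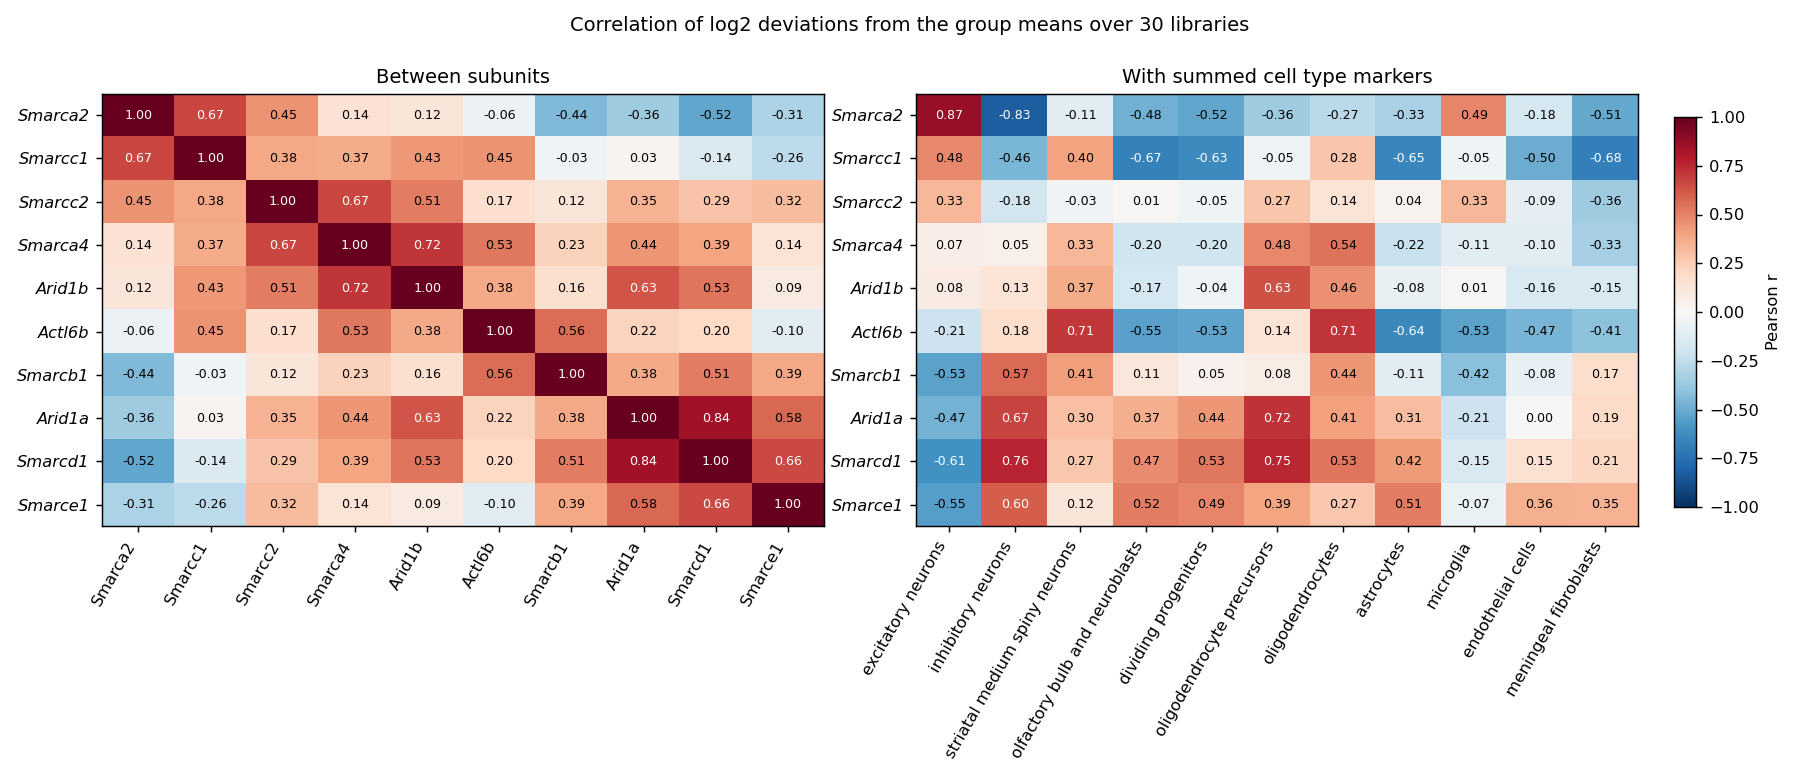
Pearson correlation over 30 libraries of log2 deviations from the group means, between the 10 subunits (left) and between subunits and summed cell type markers (right); red is positive and blue negative. Smarca2 stands apart from the block of Arid1a, Smarcd1 and Smarce1, and has its highest r, 0.87, with excitatory neuron markers.

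For each subunit the gene most like it, by the same correlation among all 16824 genes tested, was found over the 30 libraries. For the ATPases these were Hmgxb3 for Smarca4 (r = 0.84) and the neuronal kinase gene Brsk1 for Smarca2 (r = 0.93). Kmt2a, a histone methyltransferase gene, was nearest to Arid1a (r = 0.87) and Prrc2b to Arid1b (r = 0.86). Cnnm1 was nearest to Smarcc1 (r = 0.89) and Atn1, a nuclear corepressor gene, to Smarcc2 (r = 0.87). Sin3b, a corepressor gene, was nearest to Smarcb1 (r = 0.79), Cnot3 to Smarce1 (r = 0.87), Zfp618 to Smarcd1 (r = 0.93) and Lrrc4b, a synaptic adhesion gene, to Actl6b (r = 0.89). No subunit was the nearest gene of another.

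The other BAF genes, 21 in all from a list of alternative, neuronal, PBAF and non-canonical subunits were described next. By limma, 0 of 21 were called in each of the 7 comparisons named above, and the median log2 fold change was 0.0012 for HT vehicle against WT vehicle, -0.02 for fluoxetine and -0.0002 for lithium against HT vehicle. For genotype the smallest p-values were those of Dpf1, a neuronal subunit, at 0.11 ± 0.05 (SE; limma, adjusted p = 0.607) and Arid2, which defines PBAF, at 0.10 ± 0.06 (SE). Without HT vehicle female 1 these were 0.08 for Dpf1 and 0.06 for Arid2. Dpf1 averaged 1878 ± 131 (SD, n = 7) normalized counts in HT vehicle libraries, against 1736 ± 113 (SD, n = 8) in WT vehicle libraries. For fluoxetine they were Bcl7c at -0.08 ± 0.05 (SE) and Brd7, a PBAF subunit, at -0.05 ± 0.04 (SE), and -0.02 for Brd7 without HT vehicle female 1. For lithium they were Bicral, a subunit of the non-canonical complex, at -0.08 ± 0.04 (SE) and Dpf3 at 0.34 ± 0.19 (SE), and the highest Dpf3 library was HT lithium male 4. Without that library the Dpf3 difference was 0.26.

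Against WT vehicle, the smallest p-values for HT fluoxetine were those of Bcl7a at -0.08 ± 0.04 (SE) and Smarcd2, a paralog of Smarcd1, at 0.13 ± 0.06 (SE). Those for HT lithium were again Bicral, at -0.10 ± 0.04 (SE; limma, adjusted p = 0.184), and Dpf3, at 0.36 ± 0.18 (SE), or 0.27 without HT lithium male 4. Between the drugs, HT fluoxetine minus HT lithium, they were Bcl11a, a zinc finger subunit, at -0.12 ± 0.05 (SE) and Bicral at 0.08 ± 0.04 (SE), and in female against male libraries Ss18l1, the neuronal paralog of Ss18, at -0.05 ± 0.02 (SE) and Bcl7b at 0.04 ± 0.03 (SE). Among other remodeller lists, 0 of 9 ISWI, 0 of 10 INO80, SRCAP and TIP60 and 0 of 14 NuRD genes were called in the same 7 comparisons. Of 27 Polycomb genes 1 was called in 1 of them: Eed, a core subunit of the repressive complex that methylates histone H3, was higher in HT lithium than in WT vehicle libraries (limma, adjusted p = 0.0111), a comparison in which 1.97% of all genes were called.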

How the data were processed

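Gene expression in prefrontal cortex was taken from 1 table of 18240 genes in 30 libraries, grouped by the genotype, treatment and sex in their titles. The deposited signal of each gene is a normalized count; per the submitters' processing notes the authors used genome build GRCm38, DESeq2 1.19.11, R 3.6.0 and Salmon 0.11.2. Every value came out as a whole read within 0.01 (100% of values) after division by 1 step per library, so the reads were recovered. In 2 libraries that step lay within 0.5% of 1. The sources used here give no annotation release, filter or strand handling for that step. Ensembl identifiers were matched to GENCODE M21 (18227 with a symbol, 13 without), and promoters come from RefSeq.

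Tests used limma 3.58.1 (trend, robust) in R 4.3.3 on log2(value + 1) over the 16824 genes whose mean was 10 or more, with 8 group means in 1 fit and 22 residual degrees of freedom. Contrasts were averaged over the sexes, and p-values were adjusted by Benjamini-Hochberg over all genes tested, with calls at an adjusted p under 0.05. Fold changes on this scale understate the change of low genes. Since the values were not raw counts, the count tests, edgeR 4.0.16 (quasi-likelihood) and DESeq2 1.42.0 on the recovered reads, were alternatives. edgeR called 123 genes for genotype, 5 for fluoxetine and 15 for lithium. The fit was tested on simulated data. The further alternatives were TMM scaling, pseudocounts of 0.5 and 5, no filter or a mean of 50, only the compared groups in the fit, the replicate number as a block, marker sums as covariates, and leaving out libraries. The 42 replicate pairs differed beyond sampling noise (chi-square over its degrees of freedom 4.79 to 31.9), and each library was counted once; 30 of 30 libraries matched their sex label.

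All 10 subunits are named, with the 2 other BAF genes of smallest p per comparison, called genes of the other lists, and the gene most correlated with each subunit. The members, lists and alternatives were chosen with earlier results of these data known. Each subunit rests on more than 1000 reads in every library. The part of counting error in the spread between libraries was not estimated.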

Additional observations from a re-analysis of the deposited data

Results flagged for a closer look

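In groups of 4 libraries, a library was singled out where its gap to the nearest other exceeded the share of the range given by Dixon's 95% critical value. Of 60 tests (10 subunits in 6 groups) 4 did so, and chance gives about 1 in 20, or 3. Smarca4 in HT fluoxetine female 1 was low at 4319 normalized counts, with the other 3 at 4682 to 4744. Smarcc1 in HT lithium male 4 was low at 1749, with the others at 1980 to 2025. In HT vehicle female 1, Smarce1 was high at 1646, with the others at 1454 to 1469, and Smarcd1 was high at 5431, with the others at 4671 to 4707. HT lithium male 4 and HT vehicle female 1, which hold 3 of the 4, are also the libraries with the highest olfactory bulb and neuroblast marker sums, and the part of that tissue in these values was not tested.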

How the results depend on the processing

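The count of called subunits was 0 in all 10 comparisons and stayed 0 except as follows. DESeq2 called 1 for HT lithium against WT vehicle (Arid1b), marker covariates called 1 for HT fluoxetine against WT vehicle (Smarcd1), and leaving out 1 library gave 0 to 1 for HT lithium against WT vehicle. Since limma called 0 subunits over all libraries, there was no called difference whose sign could change. Of 100 subunit differences 45 changed sign under at least 1 alternative. Over all alternatives the log2 fold change of Arid1b in HT lithium against WT vehicle ran from -0.17 to -0.09, with adjusted p from 0.04 to 0.226, and that of Smarcd1 in HT fluoxetine against WT vehicle from -0.13 to -0.08, with adjusted p from 0.00277 to 0.375. Female against male used all groups, so no fit with fewer groups was made. The labels do not say whether replicate numbers pair the libraries, and correlations cannot decide it. Same-numbered libraries correlated at -0.34 to 0.28 over 7 genotype pairs, -0.43 to 0.45 over 7 fluoxetine pairs and -0.20 to 0.08 over 6 lithium pairs. The correlation was above 0.1 in 4 genotype, 3 fluoxetine and 0 lithium pairs. The replicate numbers used here are those in the sample titles. The column names number the HT lithium females 1, 3 and 4 rather than 1, 2 and 3, and by those the 3 female lithium pairs correlated at -0.40 to -0.02. With the title's replicate number as a block, 0 subunits were called in any comparison, and 117 genes for genotype.

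Counts over all genes moved more. For genotype, 123 became 68 with the filter at a mean of 50 and 254 with marker covariates. For fluoxetine, 6 became 12 with DESeq2, 11 with only the compared groups and 14 with covariates (3 to 7 leaving out 1 library), and for lithium 15 became 5 with only the compared groups (8 to 16 leaving out 1). For HT fluoxetine against WT vehicle, 251 (209 higher) became 165 with the filter at 50 and 553 (393 higher) with covariates. For HT lithium against WT vehicle, 332 became 208 with only the compared groups, 489 with DESeq2, and 196 to 503 leaving out 1 library. For HT fluoxetine against HT lithium, 0 became 13 with DESeq2 and 11 with covariates, and 1154 had an unadjusted p under 0.05. For female against male, 36 became 79 with DESeq2 and 140 with covariates. Groups of 3 or 4 libraries of each sex limit the precision of the differences between the sexes.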
